A study of Mus musculus with 3 samples.

Results

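The transcripts of 10 NF-κB genes were followed in donor T cells after allogeneic bone marrow transplantation, given as a list of subunits and inhibitors, out of 18029 genes in the count table. They were the subunit genes Nfkb1, Nfkb2, Rel, Rela and Relb, the IκB genes Nfkbia, Nfkbie, Nfkbid and Bcl3, and Tnfaip3. All 10 passed the filter on low counts in CD4+ cells (10568 genes tested) and in CD8+ cells (10841 genes tested). B6D2F1 mice had received bone marrow and T cells from B6 donors plus a small number of TEa cells, B6 T cells with a transgenic receptor for alloantigen, so every group carried an alloreactive graft. Recipients were given saline or cyclosporine (CSA) at 5 or 50 mg/kg each day from day 0 to day 6, and spleens were taken on day 7. Each group held 6 mice combined by 2 into 3 hashtagged pools, whose sorted CD4+ and CD8+ cells were run as 1 droplet capture per group. Capture and treatment therefore cannot be told apart, and p-values measure the spread between pools within captures. No group without a transplant was analysed here, and the 280 TEa cells were kept apart.

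NF-κB factors are dimers that wait in the cytoplasm of resting T cells, held by IκB proteins. Engagement of the T cell receptor acts through BCL10 and MALT1 on IκB kinase, IκBα is destroyed, and dimers of RELA, c-REL and p50 enter the nucleus, while a slower alternative route through NIK yields p52 and RELB. Several inhibitors are themselves induced by NF-κB, among them IκBα and A20, and so limit the response. CSA, bound to cyclophilin, blocks the phosphatase calcineurin and thereby NFAT, a calcium-dependent factor that often acts together with NF-κB at activation genes.

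The promoters of the genes whose values carry the results are shown because motifs for these factors lie in some of them. RefSeq windows of 250 bases ending just before the transcription start (GRCm38.p6) were searched on both strands for the 10-base kB consensus, for the AP-1 site TGANTCA and for the NFAT core TGGAAA. The tables held windows for 8 of the 10 genes, 13 windows in all, and a kB match was present in 8 of these windows, belonging to 6 genes. Over all 32851 mouse windows, 7.25% held a kB match, 6.75% the AP-1 site and 18.6% the NFAT core. The windows below run 5′ to 3′ on the strand of the gene, with kB matches in capitals, and matches that overlap are merged. They lie at chr11:23770970-23771219 for Rel (minus strand), chr10:19015411-19015660 for Tnfaip3 (minus strand, the first of 2 starts), chr12:55492648-55492897 for Nfkbia (minus strand), chr19:46304487-46304736 for Nfkb2 (plus strand, the first of 3 starts) and chr19:5637291-5637540 for Rela (plus strand).
Rel: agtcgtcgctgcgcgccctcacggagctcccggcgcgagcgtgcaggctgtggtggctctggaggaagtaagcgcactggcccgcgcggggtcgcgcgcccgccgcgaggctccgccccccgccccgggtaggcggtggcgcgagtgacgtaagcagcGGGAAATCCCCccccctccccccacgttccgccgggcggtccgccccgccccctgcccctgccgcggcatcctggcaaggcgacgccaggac
Tnfaip3: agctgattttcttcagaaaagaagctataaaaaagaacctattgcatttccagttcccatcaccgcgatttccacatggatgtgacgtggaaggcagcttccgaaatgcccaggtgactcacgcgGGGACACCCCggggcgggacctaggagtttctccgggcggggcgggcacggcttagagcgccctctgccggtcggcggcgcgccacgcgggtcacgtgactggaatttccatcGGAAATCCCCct
Nfkbia: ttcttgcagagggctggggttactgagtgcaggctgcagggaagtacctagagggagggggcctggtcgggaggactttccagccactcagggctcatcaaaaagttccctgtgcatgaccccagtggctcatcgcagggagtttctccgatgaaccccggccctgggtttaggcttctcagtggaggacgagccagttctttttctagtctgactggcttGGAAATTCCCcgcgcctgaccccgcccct
Nfkb2: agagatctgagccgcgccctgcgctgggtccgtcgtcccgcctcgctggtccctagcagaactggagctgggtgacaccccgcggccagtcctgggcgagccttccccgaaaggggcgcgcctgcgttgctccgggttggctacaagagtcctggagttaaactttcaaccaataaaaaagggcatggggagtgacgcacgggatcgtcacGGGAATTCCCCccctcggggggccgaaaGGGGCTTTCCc
Rela: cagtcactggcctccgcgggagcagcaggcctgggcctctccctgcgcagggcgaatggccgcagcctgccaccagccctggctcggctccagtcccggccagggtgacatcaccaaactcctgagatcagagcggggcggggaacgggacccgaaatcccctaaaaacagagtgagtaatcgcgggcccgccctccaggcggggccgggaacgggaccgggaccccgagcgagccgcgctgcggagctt
The Rel match spans positions -92 to -82 before the start, that of Nfkbia -29 to -20, and those of Tnfaip3 -125 to -116 and -12 to -3. The Nfkb2 window holds matches from -39 to -29 and from -11 to -2. The windows of Rela and Bcl3 held no kB match, whereas that of Nfkbie and 1 of the 3 windows of Nfkbid did. The AP-1 site was found in 3 of the 13 windows, belonging to 3 genes, and the NFAT core in 4, belonging to 4 genes. Among the windows shown, NFAT cores were found in those of Nfkbia (2) and Tnfaip3 (3). A match is a run of letters and not a measured binding site. All 10 are protein-coding genes, which lie at chr3:135584655-135691969 (Nfkb1), chr19:46300994-46312400 (Nfkb2), chr11:23736847-23770969 (Rel), chr19:5637442-5648134 (Rela), chr7:19606217-19629438 (Relb), chr12:55489409-55492647 (Nfkbia), chr7:30421731-30428749 (Nfkbid), chr17:45555700-45563169 (Nfkbie), chr10:19000910-19015410 (Tnfaip3) and chr7:19808462-19822824 (Bcl3). The Nfkb1 and Relb promoters are named only.

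The count table held 21204 cells, 10371 CD4+ and 10833 CD8+, with 4086252 to 7663132 UMIs per pool in CD4+ cells and 4392100 to 11454636 in CD8+ cells. Median UMIs per cell in CD4+ cells were 3107 with saline, 4416 with the low and 5998 with the high dose, and in CD8+ cells 4108, 6121.5 and 7183. Among the 20986 distinct barcodes, 218 occurred in more than 1 capture, and 1080 cells carried a second hashtag at 0.5 or more of the strongest. Cd8a was at 0 UMIs in every pool of CD4+ cells and Cd4 at 0 in every pool of CD8+ cells, whereas Cd8b1 was seen in CD4+ cells at 141 to 153 CPM in saline pools and 20.8 to 25.8 in those of the high dose (86.3 to 95.7 in those of the low dose), against 1265 to 1368 in CD8+ cells in saline. The 0 values are no measure of purity if cells were assigned to a lineage by these transcripts, which was not tested. On the scale of library size CPM (UMIs relative to the library's total), the summed level of 5 erythroid markers was 3.21 to 14.5 CPM in CD4+ saline pools and 27.7 to 36.6 at 50 mg/kg, and 3.89 to 17.6 and 23.7 to 48.1 in CD8+ pools. B cell markers summed to 208 to 221 CPM in CD4+ saline pools and 265 to 276 at 50 mg/kg (189 to 205 and 343 to 367 in CD8+ pools), and Ighm made up most of the sum and its rise (168 to 184 and 252 to 267 CPM in CD4+ pools). Of 4 B cell markers tested at 50 mg/kg after TMM scaling, 1 rose and 3 fell in CD4+ cells and 2 rose and 2 fell in CD8+ cells, and H2-Aa, an MHC class II gene, went from 14.1 to 17.6 CPM down to 1.99 to 4.74 in CD4+ pools. Ms4a1, another B cell marker, was at no more than 0.455 CPM in any pool. Transcripts of 17 genes raised by tissue dissociation summed to 4615 to 4970 CPM in CD4+ saline pools and 4492 to 4839 at 50 mg/kg, with overlapping ranges (3975 to 4389 and 3494 to 4076 in CD8+ pools). Hspa8 made up much of that sum, and the single genes moved apart: of 14 tested after TMM scaling, 7 rose and 3 fell in CD4+ cells and 8 rose and 4 fell in CD8+ cells, with Fosb at 52.5 to 61.3 CPM in CD4+ saline pools and 9.63 to 14.2 at 50 mg/kg and Nr4a1 at 39.8 to 41.9 and 82.9 to 93.9. The summed level of 9 myeloid markers was 328 to 353 CPM in CD4+ saline pools and 313 to 404 at 50 mg/kg (404 to 440.1 and 377 to 456 in CD8+ pools), but 3 of the 9 rose and 1 fell in CD4+ cells and 6 rose and 1 fell in CD8+ cells after TMM scaling. NK markers summed to 15.6 to 21.2 CPM in CD4+ saline pools and 29.0 to 31.3 at 50 mg/kg (48.9 to 56.8 and 47.8 to 50.2 in CD8+ pools). Eomes, which T cells also express, carried the CD4+ rise (9.18 to 14.8 and 27.7 to 30.9 CPM), whereas Klrb1c went from 6.01 to 6.43 down to 0.444 to 0.527 CPM in CD4+ and from 4.76 to 8.29 down to 0.239 to 1.22 in CD8+ pools. The part of these markers in the results was not tested. Of 5 T cell markers tested at 50 mg/kg, 3 were called higher and 2 lower in CD4+ cells, and 5 higher in CD8+ cells.

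Scaling mattered for the sign of small changes. Ribosomal protein genes took 13.9% to 14.1% of UMIs in CD4+ saline pools, 21.1% to 21.5% with the low dose and 18.8% to 19.9% with the high dose, and in CD8+ pools 12.1% to 12.7%, 20.5% to 21.5% and 19.8% to 20.6%. Values below are CPM, UMI counts relative to the library's total, after TMM scaling, which places the median gene near 0. Scaling by library size alone moved the median of all genes to log2 -0.37 and -0.45 in CD4+ cells and to -0.43 and -0.53 in CD8+ cells (5 and 50 mg/kg). The share of calls that were higher than saline then dropped from 50.4% to 13.9% at 5 mg/kg and from 49.2% to 20.4% at 50 mg/kg in CD4+ cells, and from 49.7% to 15.8% and from 50.1% to 19.9% in CD8+ cells. A change is therefore stated relative to the median gene, and where library size scaling turned the sign of a called change of the 10 genes in a pool sum, the value is given beside it. Because a UMI is taken at the 5′ end and library sums are relative, levels were compared between groups and not between genes.

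At 50 mg/kg most of the 10 transcripts fell in both lineages. In CD4+ cells 8 fell, 1 rose and 1 was not called in edgeR (quasi-likelihood F test, p adjusted over all genes by Benjamini-Hochberg), where 70.5% of all genes tested were called, 35.8% lower and 34.7% higher. In CD8+ cells 7 fell, 2 rose and 1 was not called, against 74% of all genes called, 36.9% lower and 37.1% higher. The median change of the 10 was -0.59 in CD4+ and -0.34 in CD8+ cells on the log2 scale, and that of all genes was -0.012 and 0.00097. At 5 mg/kg the list was divided. In CD4+ cells 3 rose and 4 fell (51.7% of all genes called, 26.1% higher and 25.6% lower), and in CD8+ cells 5 rose and 3 fell (60.2% called, 29.9% higher and 30.3% lower), with medians of -0.0069 and 0.09. The pools of saline and of the treated group did not overlap for 7 and 8 of the 10 genes in CD4+ cells at 5 and 50 mg/kg (57.7% and 72.7% of all genes) and for 8 and 9 in CD8+ cells (66% and 75.8%). With library size scaling, Rela turned to lower values in all 4 comparisons with saline, Nfkbia at 5 mg/kg in both lineages, Nfkbid in CD4+ cells at 50 mg/kg and Relb in CD8+ cells at both doses. Relb in CD4+ cells at 5 mg/kg, which was not called, turned as well (log2 of the ratio of means -0.19).

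**Figure D1:**
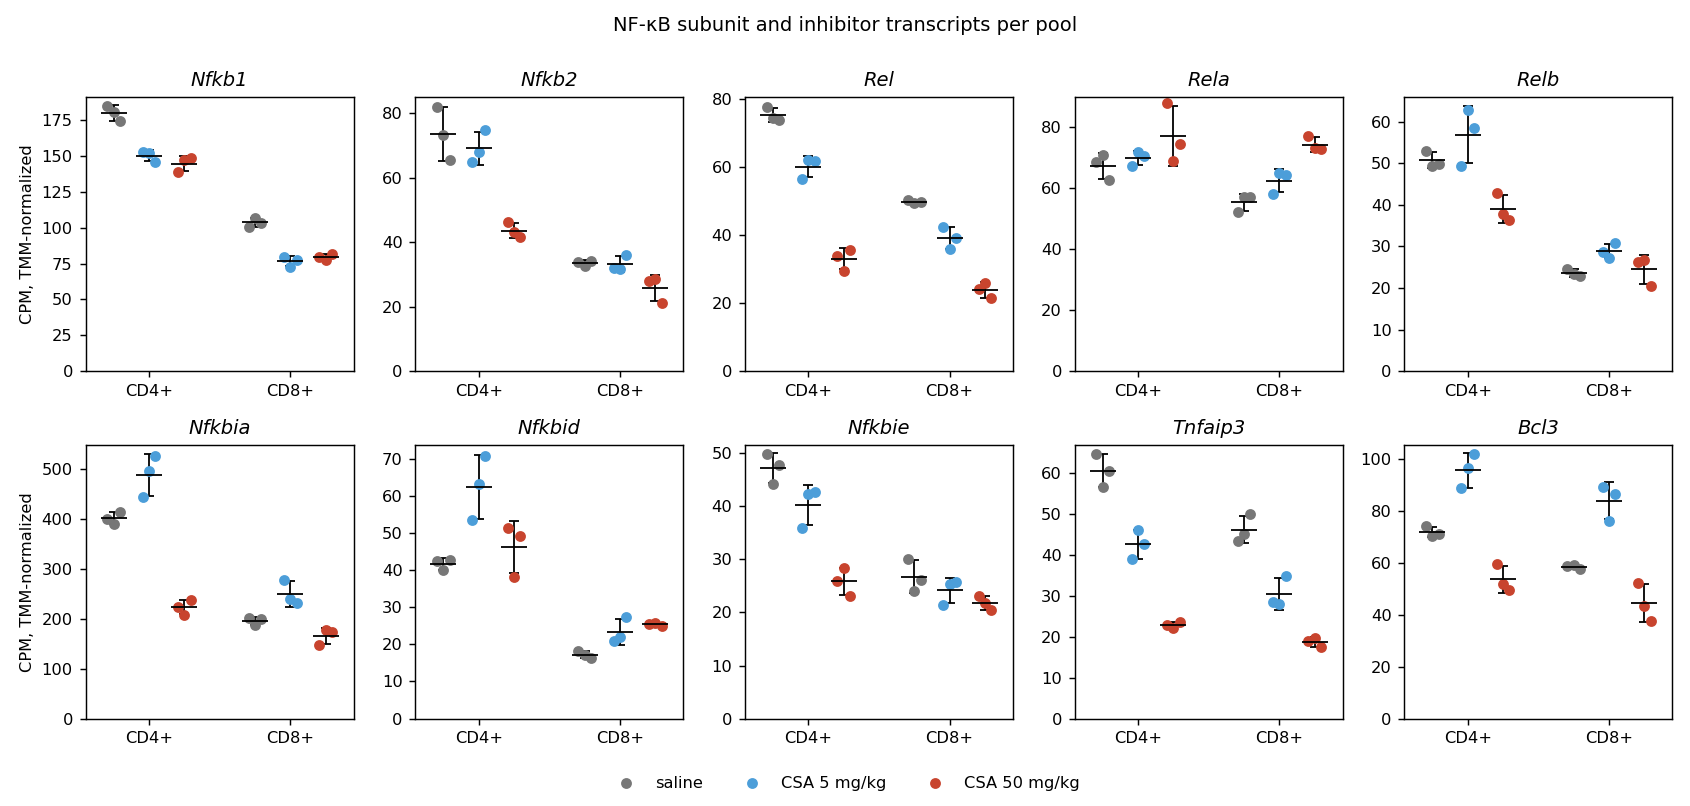
Level of each transcript in CPM after TMM scaling (y axis, from 0) in CD4+ and CD8+ T cells, with 1 point per pool, 3 pools per group, and bars for mean ± SD. Rel and Tnfaip3 step down from saline through the low to the high dose without overlap in either lineage, whereas Nfkbia and Bcl3 stand above saline at 5 mg/kg and below it at 50 mg/kg (with library size scaling Nfkbia at 5 mg/kg was below saline).

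Rel, which encodes c-REL, the subunit most tied to lymphocyte activation, fell at both doses. CD4+ saline pools had 77.7, 74.5 and 73.7 CPM, those at 5 mg/kg 56.5, 62.1 and 61.6, and those at 50 mg/kg 33.9, 29.5 and 35.7. The 3 groups did not overlap. The change, given with its SE, was log2 -0.32 ± 0.071, adjusted p = 0.000815 at 5 mg/kg and log2 -1.18 ± 0.075, adjusted p = 9.17e-12 at 50 mg/kg, which left 44.1% of the saline level (edgeR's quasi-likelihood test). CD8+ pools had 50.3, 49.5 and 49.7 CPM in saline, 42.4, 35.8 and 39.1 at 5 mg/kg and 24.0, 26.0 and 21.3 at 50 mg/kg, again without overlap. Here the changes were log2 -0.35 ± 0.079, adjusted p = 0.000875 and log2 -1.07 ± 0.081, adjusted p = 1.19e-09.

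Nfkb1 encodes p105, the precursor of p50, and it fell by a similar amount at both doses. In CD4+ cells its level was 185, 181 and 174 CPM in saline, 153, 152 and 146 at 5 mg/kg and 138, 147 and 149 at 50 mg/kg. All treated pools lay below all saline pools, but the treated groups overlapped with each other. The log2 changes were -0.26 ± 0.048 (adjusted p = 0.000113) and -0.31 ± 0.047 (adjusted p = 4.86e-06) in edgeR's test. CD8+ pools had 101, 107 and 103 CPM in saline, 79.4, 72.9 and 77.7 at 5 mg/kg and 79.8, 77.3 and 81.7 at 50 mg/kg, with all treated pools below all saline pools. The changes there were -0.44 ± 0.053 and -0.38 ± 0.051 (adjusted p = 1.43e-06 and 2.22e-06).

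Nfkb2, the gene of p100 and p52 in the alternative route, fell at the high dose. CD4+ pools had 81.9, 73.3 and 65.3 CPM in saline and 64.8, 67.8 and 74.6 at 5 mg/kg, which overlapped, and 46.2, 43.1 and 41.5 at 50 mg/kg, which lay below both (log2 -0.75 ± 0.082, adjusted p = 6.05e-08, edgeR). CD8+ pools had 33.8, 32.6 and 34.2 CPM in saline, 32.1, 31.7 and 35.9 at 5 mg/kg and 27.9, 28.4 and 21.1 at 50 mg/kg, with a change of -0.39 ± 0.10 at 50 mg/kg (adjusted p = 0.00191). In CD8+ cells outside the cycling clusters this fall was -0.21 and no longer passed the threshold (adjusted p = 0.0888, edgeR).

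Relb encodes the partner of p52. It fell in CD4+ cells at 50 mg/kg, where pools held 42.9, 37.7 and 36.4 CPM against 53.0, 49.4 and 49.9 in saline, and the values at 5 mg/kg were 49.3, 62.8 and 58.5. The change at 50 mg/kg was log2 -0.38 ± 0.086, adjusted p = 0.000551 by edgeR's test, and at 5 mg/kg 0.18 ± 0.085 (adjusted p = 0.0903), which passed without CSA (5 mg/kg) pool 1 (0.26, adjusted p = 0.0144) and was below 0 with library size scaling. In CD8+ cells Relb was 24.6, 23.4 and 22.8 CPM in saline, 28.6, 27.3 and 30.7 at 5 mg/kg and 26.2, 26.8 and 20.5 at 50 mg/kg. The value at 5 mg/kg was higher by 0.30 ± 0.10 (adjusted p = 0.0199), which turned to -0.12 with library size scaling and missed the threshold with DESeq2 (adjusted p = 0.0572), without cells with a second strong hashtag (adjusted p = 0.0558), and without CSA (5 mg/kg) pool 3 (0.24, adjusted p = 0.112) or saline pool 3 (0.27, adjusted p = 0.0577).

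Rela, the gene of the main transactivating subunit, did not fall in any comparison after TMM scaling. Its CD4+ pools had 68.3, 70.6 and 62.4 CPM in saline, 67.1, 71.6 and 70.4 at 5 mg/kg and 87.8, 68.6 and 74.2 at 50 mg/kg, all overlapping. The change at 50 mg/kg was log2 0.20 ± 0.078, adjusted p = 0.031 (edgeR), but -0.24 with library size scaling (adjusted p = 0.00845), a called fall. It missed the threshold with DESeq2 (adjusted p = 0.0592) and without CSA (50 mg/kg) pool 1 (0.094, adjusted p = 0.254) or saline pool 3 (0.14, adjusted p = 0.157). CD8+ pools had 52.0, 56.8 and 57.0 CPM in saline, 57.9, 64.8 and 64.2 at 5 mg/kg and 76.8, 72.9 and 72.5 at 50 mg/kg, and all treated pools were above all saline pools. The change at 50 mg/kg was 0.42 ± 0.058 (adjusted p = 3.60e-06) but -0.11 with library size scaling (adjusted p = 0.095), so its direction depended on the scale. At 5 mg/kg the CD8+ change of 0.18 ± 0.062 (adjusted p = 0.0186) was likewise a called fall of -0.24 with library size scaling (adjusted p = 0.00246). It missed the threshold with DESeq2 (adjusted p = 0.0833), with no filter on low counts (adjusted p = 0.0547), in cells outside the cycling clusters (0.093, adjusted p = 0.404) and without saline pool 1 (0.14) or CSA (5 mg/kg) pool 2 or 3 (0.16 and 0.15).

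Tnfaip3 encodes A20, the ubiquitin-editing enzyme that shuts off NF-κB signalling, and it had the largest fall of the 10 transcripts in both lineages at 50 mg/kg. CD4+ pools had 64.5, 56.5 and 60.4 CPM in saline, 39.0, 46.1 and 42.5 at 5 mg/kg and 22.9, 22.0 and 23.6 at 50 mg/kg. CD8+ pools had 43.4, 45.0 and 49.9 CPM in saline, 28.4, 27.9 and 34.8 at 5 mg/kg and 18.9, 19.8 and 17.5 at 50 mg/kg. The 3 groups were separate in each lineage, and the high dose left 38.0% of the saline level in CD4+ and 40.4% in CD8+ cells. In edgeR's test the CD4+ changes were log2 -0.50 ± 0.078, adjusted p = 1.78e-05 at 5 mg/kg and log2 -1.40 ± 0.083, adjusted p = 3.09e-12 at 50 mg/kg. The CD8+ changes were log2 -0.58 ± 0.093, adjusted p = 3.17e-05 and log2 -1.31 ± 0.095, adjusted p = 7.14e-10.

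Nfkbia, the gene of IκBα, which binds RELA and c-REL dimers in the cytoplasm, did not follow the dose in a single direction. CD4+ pools had 401, 390.1 and 414 CPM in saline, 444, 497 and 526 at 5 mg/kg and 225, 209 and 238 at 50 mg/kg. The low-dose pools were thus all above and the high-dose pools all below saline. The change was log2 0.29 ± 0.054, adjusted p = 0.000129 at the low dose, which turned to -0.072 with library size scaling, and log2 -0.84 ± 0.055, adjusted p = 1.77e-11 at the high dose (edgeR). CD8+ pools had 202, 187 and 199 CPM in saline, 279, 239 and 232 at 5 mg/kg and 148, 177 and 173 at 50 mg/kg, with the groups again separate. These gave 0.34 ± 0.069 at 5 mg/kg (adjusted p = 0.000325, and -0.082 with library size scaling) and -0.24 ± 0.069 at 50 mg/kg (adjusted p = 0.00455). Between the doses Nfkbia fell by 1.13 on the log2 scale in CD4+ cells and by 0.58 in CD8+ cells (adjusted p = 9.36e-13 and 3.76e-06), and with library size scaling by 1.21 and 0.69.

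Bcl3, an atypical IκB that works in the nucleus with p50 and p52 dimers, had the same shape. Its CD4+ pools held 74.1, 70.4 and 71.3 CPM in saline, 88.8, 96.5 and 102 at 5 mg/kg and 59.6, 51.9 and 49.6 at 50 mg/kg. Its CD8+ pools held 58.9, 59.4 and 57.7 CPM in saline, 89.5, 76.2 and 86.7 at 5 mg/kg and 52.4, 43.5 and 37.8 at 50 mg/kg. In both lineages low-dose pools were above and high-dose pools below every saline pool. The CD4+ changes were log2 0.42 ± 0.07, adjusted p = 3.72e-05 and log2 -0.42 ± 0.073, adjusted p = 2.99e-05, and the CD8+ changes log2 0.52 ± 0.086, adjusted p = 4.74e-05 and log2 -0.41 ± 0.089, adjusted p = 0.000465 (edgeR). The low-dose rise shrank to 0.062 in CD4+ and 0.093 in CD8+ cells with library size scaling and was then not called (adjusted p = 0.455 and 0.354). The step from 5 to 50 mg/kg held on both scales, at -0.85 ± 0.073 in CD4+ and -0.93 ± 0.09 in CD8+ cells after TMM scaling and -0.92 and -1.03 with library size alone.

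Nfkbid, the gene of the nuclear inhibitor IκBNS, rose in 3 of the 4 comparisons with saline. In CD4+ cells it went from 42.5, 39.9 and 42.7 CPM in saline to 53.4, 63.3 and 70.6 at 5 mg/kg (log2 0.60 ± 0.10, adjusted p = 5.20e-05, edgeR), and its values at 50 mg/kg were 51.3, 38.2 and 49.1. The last set overlapped saline, with a change of 0.15 ± 0.10 (adjusted p = 0.198) that turned to -0.29 with library size scaling and passed without CSA (50 mg/kg) pool 2 (0.27, adjusted p = 0.0172). In CD8+ cells all treated pools stood above saline, with 18.2, 17.1 and 16.2 CPM in saline, 21.0, 21.9 and 27.4 at 5 mg/kg and 25.5, 25.8 and 24.9 at 50 mg/kg. The CD8+ changes of 0.48 ± 0.11 and 0.57 ± 0.10 (adjusted p = 0.000843 and 6.05e-05) shrank to 0.055 and 0.035 with library size scaling, where neither was called. Outside the cycling clusters they were 0.37 and 0.31 and were not called either (adjusted p = 0.161 and 0.172).

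Nfkbie encodes IκBε, a cytoplasmic inhibitor. CD4+ pools had 49.9, 44.2 and 47.8 CPM in saline, 35.9, 42.3 and 42.7 at 5 mg/kg and 26.0, 28.4 and 23.1 at 50 mg/kg. The high-dose pools lay below all others (log2 -0.87 ± 0.091, adjusted p = 2.85e-08, edgeR). The low-dose change of -0.22 ± 0.089 was near the threshold (adjusted p = 0.0471) and was lost without any of 5 of the 9 pools (values from -0.15 to -0.24), with DESeq2 (adjusted p = 0.148), without cells with a second strong hashtag (adjusted p = 0.0588), or with pool number as a block (adjusted p = 0.0648). CD8+ pools had 30.1, 24.1 and 26.0 CPM in saline, 21.4, 25.3 and 25.7 at 5 mg/kg and 23.0, 21.8 and 20.5 at 50 mg/kg, and only those of saline and the high dose did not overlap. The high-dose CD8+ change was -0.30 ± 0.10 (adjusted p = 0.0125), and it missed the threshold without saline pool 1 (-0.21, adjusted p = 0.0629) and in cells outside the cycling clusters (-0.25, adjusted p = 0.0549).

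**Figure D2:**
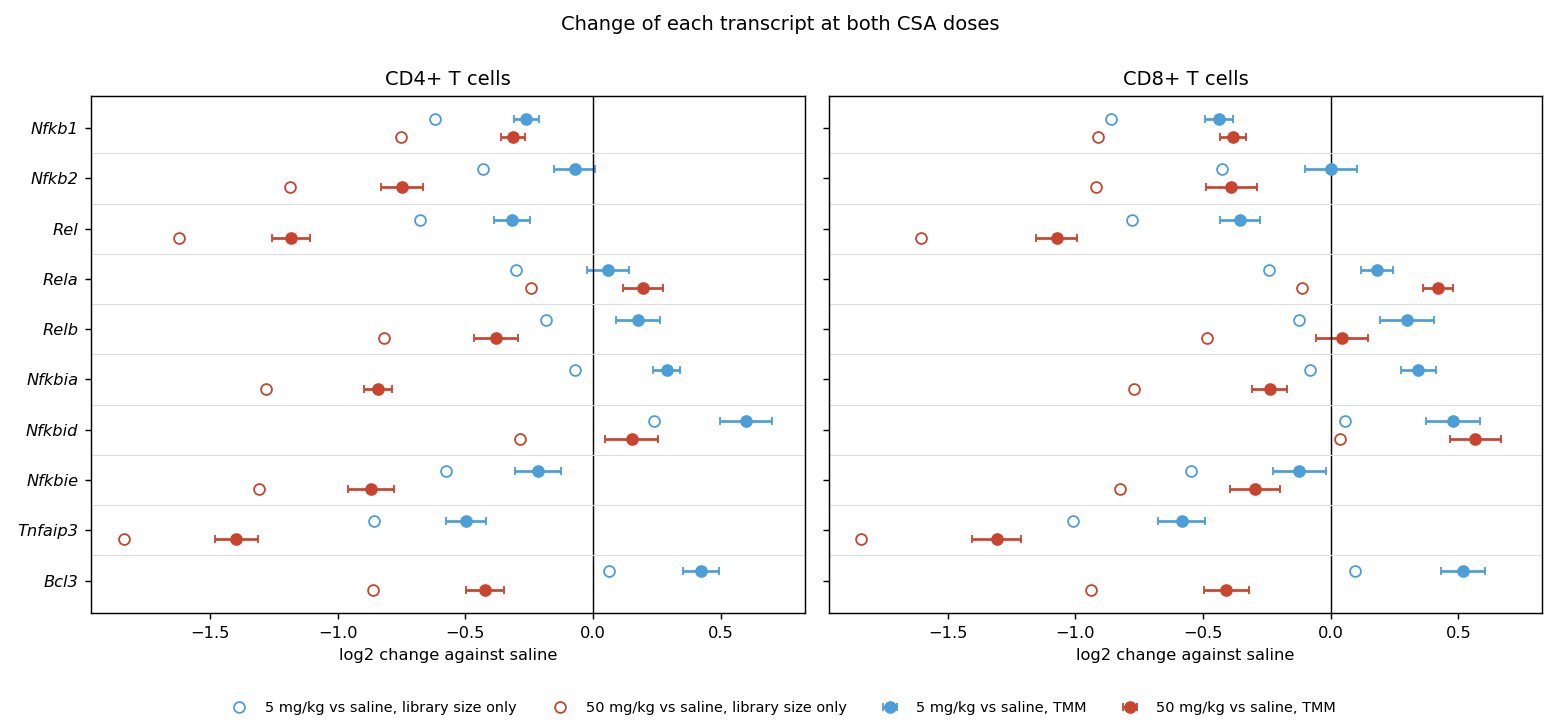
Log2 change against saline (x axis) for each transcript at 5 mg/kg (blue) and 50 mg/kg (red). Filled points are TMM-scaled fits with bars of ± 1 SE and open points the same fits with library size alone. Rel and Tnfaip3 lie left of 0 in all 8 fits each, and Rela lies right of 0 when filled and left of 0 when open.

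The contrast between doses shares its pools with the comparisons above. From 5 to 50 mg/kg, 8 of the 10 transcripts fell and none rose in CD4+ cells (41.2% of all genes called, 21.3% lower), the exceptions being Nfkb1 and Rela. In CD8+ cells 5 fell, namely Nfkb2, Rel, Nfkbia, Tnfaip3 and Bcl3, and Rela rose (41% of all genes called, 21% lower and 20% higher). The Nfkb2 fall of -0.39 ± 0.11 missed the threshold without CSA (5 mg/kg) pool 3 (-0.31, adjusted p = 0.061) and in cells outside the cycling clusters (-0.275, adjusted p = 0.0718), and the Rela step of 0.24 ± 0.061 was 0.13 and not called with library size scaling. Relb was not called in CD8+ cells (-0.26, adjusted p = 0.0628), but passed as a fall under 5 alternatives, namely library size scaling (-0.36), no filter (-0.24), cells outside the cycling clusters (-0.41) and without CSA (50 mg/kg) pool 1 or 2 (-0.31 and -0.33). With library size scaling Nfkb1 in CD4+ cells (-0.13, adjusted p = 0.0388) and Nfkbie in CD8+ cells (-0.28, adjusted p = 0.0497) passed as falls too, and Rela in CD4+ cells passed as a rise without CSA (50 mg/kg) pool 2 (0.21, adjusted p = 0.0447).

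In saline, all 10 transcripts were lower in CD8+ than in CD4+ cells of the same pools, against 18.9% of all genes lower and 40.4% called in this comparison, which had the pool as a block. On a scale common to both lineages, Nfkbia stood at 393 ± 11.8 CPM in CD4+ and 203 ± 8.33 in CD8+ cells (SD, n = 3). The largest gap was that of Nfkbid, with 40.8 ± 1.57 against 17.8 ± 1.0 CPM (-1.20 ± 0.088, adjusted p = 4.01e-11, edgeR). Nfkb2 (-1.04 ± 0.07, adjusted p = 7.73e-12), Relb (-1.02 ± 0.078, adjusted p = 7.38e-11) and Nfkbia (-0.95 ± 0.061, adjusted p = 3.05e-12) followed, so that both genes of the alternative pair p52 and RELB were among the 4 most different. The smallest gaps were those of Rela (-0.19 ± 0.063, adjusted p = 0.0159) and Bcl3 (-0.21 ± 0.062, adjusted p = 0.0075). DESeq2 did not call these, at adjusted p = 0.208 and 0.157, nor Tnfaip3 (-0.32, adjusted p = 0.109). Without saline pool 1, edgeR gave -0.14 for Rela (adjusted p = 0.151) and -0.19 for Bcl3 (adjusted p = 0.0512), and without saline pool 2, -0.17 for Rela (adjusted p = 0.122).

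The change at 5 mg/kg was not shown to differ between lineages for any of the 10 genes, with 0 called by edgeR's quasi-likelihood interaction test where 3.65% of all genes were called. At an unadjusted p under 0.05 there was 1, Nfkb1, with -0.20 ± 0.07, adjusted p = 0.115. DESeq2 called 0 and gave an adjusted p for Nfkbia alone (0.794). At 50 mg/kg the change was less negative or more positive in CD8+ than in CD4+ cells for Nfkbia (0.58 ± 0.09, adjusted p = 3.87e-05), Nfkbie (0.56 ± 0.11, adjusted p = 0.0006), Relb (0.40 ± 0.11, adjusted p = 0.0141), Nfkbid (0.39 ± 0.12, adjusted p = 0.0228) and Nfkb2 (0.33 ± 0.11, adjusted p = 0.0339), whereas 19.8% of all genes were called and 9.33% in this direction. Nfkbia kept its call under DESeq2 (adjusted p = 1.66e-05), and the other 4 did not, with adjusted p from 0.0918 to 0.393. Leaving out CSA (50 mg/kg) pool 2 took the calls of Relb, Nfkbid and Nfkb2 (0.31, 0.265 and 0.25). Nfkb2 was lost also without CSA (50 mg/kg) pool 1 or saline pool 1 or 2 (0.31, 0.26 and 0.30), and Nfkbid without saline pool 3 (0.33). For Rel, Tnfaip3 and Bcl3 the lineage differences at 50 mg/kg were 0.082, 0.06 and -0.009, and none was called.

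The submitters' clusters gave the levels in each cell state of saline mice, with CD8+ cluster numbers matched to cell states by marker genes. They are described with library size CPM and without a test, since clusters were drawn from the same counts. In CD4+ cells the cytotoxic cluster C7 was the highest of 11 for 6 of the 10 genes, and in CD8+ cells the exhausted cluster C8 was the highest of 9 for 8. Rel stood at 224 ± 58.7 CPM in C7 (SD, n = 3 pools, 187 to 292), above the TFH cluster C4 at 106 ± 12.9. In CD8+ cells it was 217 ± 48.1 in C8, above the Cd226hi effector cluster C0 at 74.9 ± 13.8. Nfkbid was the most concentrated, with 178 ± 69.9 CPM in CD4+ C7 against 72.5 ± 4.27 in the next, C2, and 189 ± 49.3 in CD8+ C8 against 21.8 ± 15.1 in C1. The pools of the highest cluster did not overlap those of the next for Nfkb2, Rel, Relb and Nfkbid in both lineages and for Tnfaip3 in CD8+ cells.

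For the other genes, the pools of the leading cluster overlapped those of the next. In CD4+ cells Tnfaip3 was highest in the Cd226hi effector cluster C0 (119 ± 5.17 CPM), Nfkbie in the TFH cluster C4 (77.8 ± 15.6), Bcl3 in the Fcer1ghi cluster C8 (107 ± 28.8) and Rela in the Cd226lo effector cluster C1 (92.0 ± 10.8). In CD8+ cells Nfkbie was highest in C0 (52.8 ± 7.16) and Bcl3 in the Tcf7hi cluster C5 (105 ± 14.3), while Nfkb1, Rela and Nfkbia were highest in C8. Naive CD8+ cells, C7, were the lowest cluster for 5 of the 10 genes, and the cycling CD4+ cluster C3 for 4. Nfkb1 and Nfkbia in CD4+ C7 (292 ± 27.6 and 674 ± 136) were not separate from C0 (290.0 ± 7.32 and 598 ± 48.2). The Treg and Th17 clusters had too few saline cells (20 and 30) to be ranked.

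**Figure D3:**
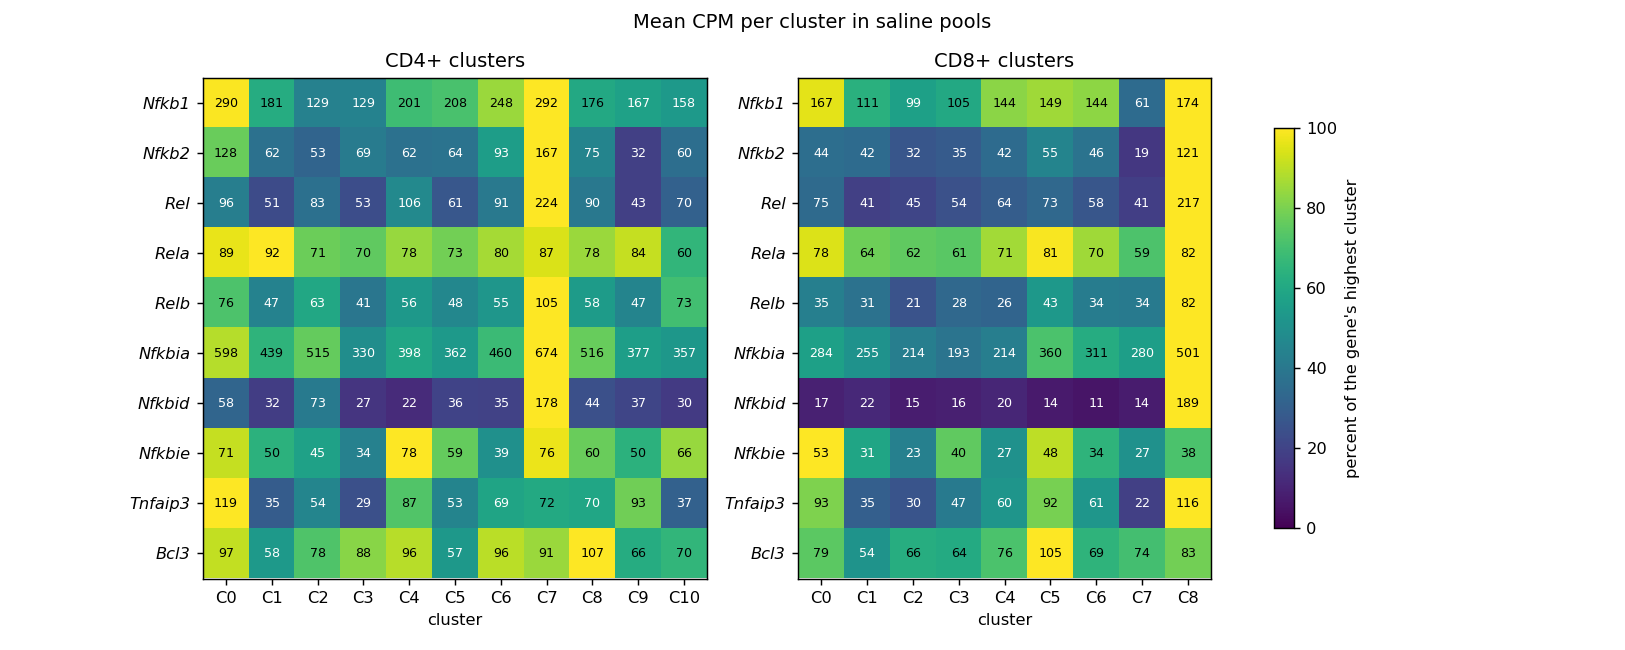
Mean library size CPM of each transcript (numbers in cells) per cluster in saline pools, coloured as a percentage of the gene's highest cluster in that lineage. The bright columns are C7 in CD4+ and C8 in CD8+ cells, where Rel reached 224 and 217 CPM.

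Within clusters, the falls at 50 mg/kg were spread over effector, cycling and cytotoxic states. Of 88 tests of a gene in a CD4+ cluster, 35 fell and 3 rose by edgeR's test at an adjusted p under 0.05, and of 72 in CD8+ clusters, 29 fell and 4 rose. Over all genes and clusters tested, 15.4% of CD4+ tests were lower and 14.8% higher, and 22.1% and 21.3% of CD8+ tests. Nfkbia fell in 7 of 11 CD4+ clusters and 6 of 8 CD8+ clusters and was below saline in all of them. Tnfaip3 fell in 7 of the 7 CD8+ clusters and 5 of the 9 CD4+ clusters that could be tested, and Rel in 5 of 7 and 6 of 9. The largest falls of Rel were in CD4+ C7 (-1.94 ± 0.23, adjusted p = 4.16e-07) and CD8+ C8 (-1.91 ± 0.26, adjusted p = 1.83e-06), the clusters in which it was highest in saline. In CD4+ C7 its level was 224 ± 58.7 CPM with saline, 126 ± 15.3 with the low and 46.1 ± 11.7 with the high dose. The largest fall of Tnfaip3 was in the CD8+ Tcf7hi cluster C5 (-1.96 ± 0.37, adjusted p = 0.000112). In the Cd226lo effector cluster C1 of CD4+ cells, 7 of the 10 genes fell (10.9% of all genes lower there), led by Nfkbia (-1.38 ± 0.095), Nfkb2 (-1.14 ± 0.21) and Relb (-1.08 ± 0.25).

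The Cd226hi effector clusters held most of the rises. In CD4+ C0, Rela (0.40 ± 0.15), Relb (0.44 ± 0.17) and Nfkbid (0.58 ± 0.19) rose at 50 mg/kg after TMM scaling while 6 genes fell, among them Tnfaip3 (-1.35 ± 0.17). Of all genes there, 54.8% were called, 26.6% higher and 28.2% lower. In CD8+ cells Nfkbid and Rela rose in C0 (1.06 ± 0.27 and 0.47 ± 0.15, 58.4% called) and in the cycling cluster C2 (0.91 ± 0.18 and 0.45 ± 0.11, 54.8% called). More of the 10 genes fell than rose there, 4 in C0 and 7 in C2. Over all genes 28.1% were higher and 30.3% lower in C0, and 27.2% and 27.5% in C2. With library size scaling Rela in both C0 clusters and Relb in CD4+ C0 turned to -0.059, -0.097 and -0.021. Nfkbid was low in CD8+ C0, at 17.2 ± 1.15 CPM in saline and 25.1 ± 4.60 at 50 mg/kg. At 5 mg/kg fewer tests passed, 4 rises and 3 falls in 88 CD4+ tests (7.49% and 5.53% over all genes) and 5 rises and 4 falls in 82 CD8+ tests (11% and 9.46%). Nfkbid rose in CD4+ C0 (1.11 ± 0.19), Nfkbia rose in CD4+ C0, C3 and C7 (0.43, 0.50 and 0.43) and fell in C6 (-0.60), and Bcl3 rose in CD8+ C2, C3 and C5 (0.42, 0.45 and 0.61). Nfkbia and Nfkbid each rose in 1 CD8+ cluster. The other falls were Nfkb1 in 2 CD4+ and 3 CD8+ clusters and Tnfaip3 in 1 of 8 CD8+ clusters. Tnfaip3 was called in 0 of 9 CD4+ clusters. Rel was called in 0 of 9 CD4+ and 0 of 8 CD8+ clusters, and was below saline in 7 of each.

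**Figure D4:**
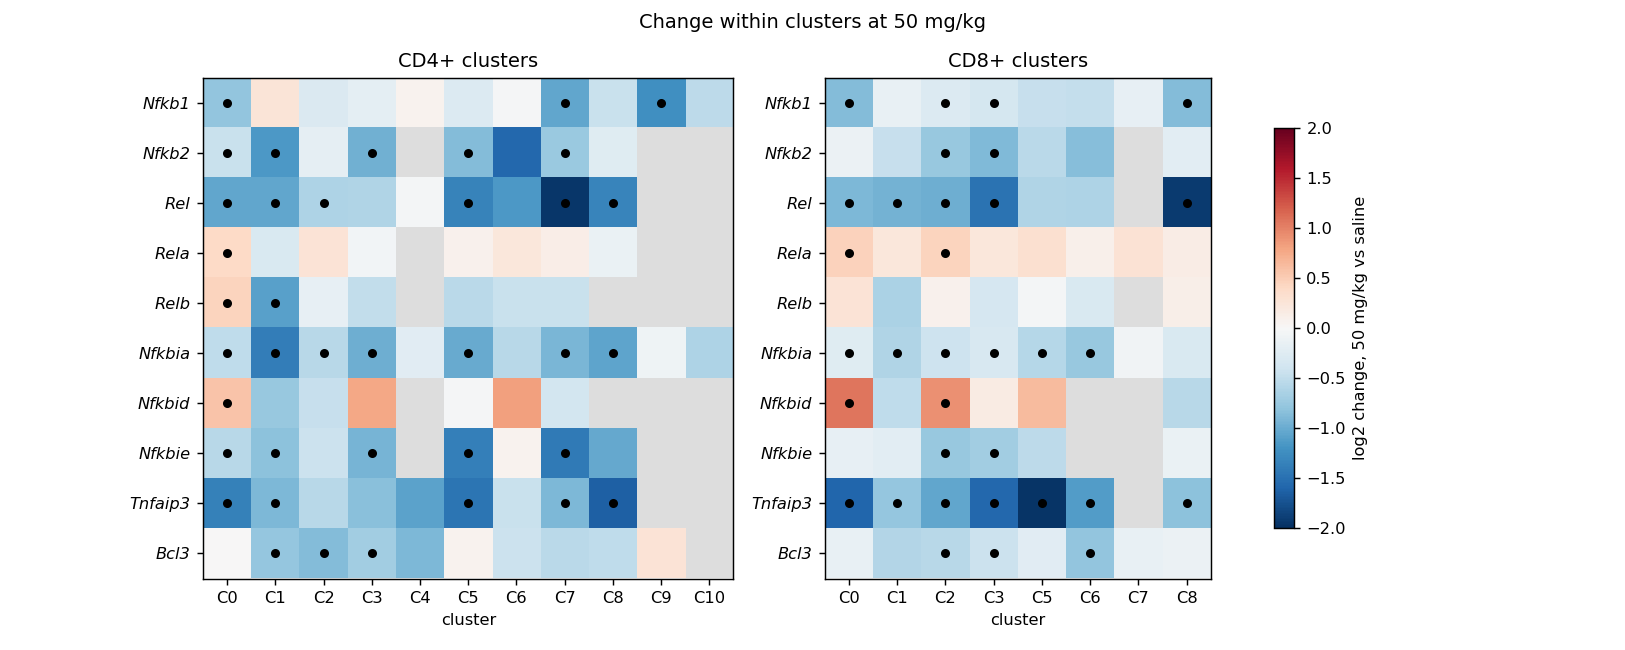
Log2 change at 50 mg/kg against saline (colour) for each transcript within each cluster after TMM scaling, with a black dot where edgeR's adjusted p was under 0.05 and grey where the gene or cluster could not be tested. Blue, for lower values, fills the rows of Nfkbia, Rel and Tnfaip3, and red is found mainly in Rela and Nfkbid, of which Rela in both C0 clusters turned to lower values with library size scaling.

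Naive cells, which have not met antigen, were compared with the effector clusters. Nfkbia was 377 ± 87.9 CPM in naive CD4+ cells (C9) in saline and 331 ± 12.2 at 50 mg/kg, and 280.1 ± 75.1 and 266 ± 50.5 in naive CD8+ cells (C7), with TMM-scaled changes of -0.083 ± 0.22 and -0.071 ± 0.19, neither called. In CD4+ cells the difference between the effector and the naive change at 50 mg/kg was called for 0 of the 10 genes by edgeR (2.82% of all genes), with 2 at an unadjusted p under 0.05, Nfkbia (-0.77, adjusted p = 0.0662) and Nfkbid (1.74, adjusted p = 0.394), and 0 by DESeq2. Nfkbia passed with library size scaling (-0.89, adjusted p = 0.0174). In CD8+ cells 1 of 9 genes tested was called (16.7% of all genes, 4.67% lower), Tnfaip3, which fell further in effector cells (-1.72, adjusted p = 0.0307). Its naive level rested on 9 UMIs in saline, and the call was lost with DESeq2 (adjusted p = 0.121) and without CSA (50 mg/kg) pool 1 or 3 or any saline pool (-1.44, -1.58, -1.66, -1.79 and -1.69).

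The mix of clusters changed with dose, from 1041 to 384 cells in CD4+ C0 and from 1015 to 20 cells in CD8+ C4 between saline and 50 mg/kg. The pool values were therefore also computed with pools weighted to the saline mix of 10 CD4+ and 7 CD8+ clusters (library size CPM, each cluster by its share of saline UMIs). Clusters with fewer than 10 cells in any pool were summed as 1 remainder per lineage, which kept its saline weight. These were C6, C11 and C12 of CD4+ and C4 and C8 of CD8+ cells. The mix inside the remainder was not held. Its C4 cells in CD8+ went from 1015 to 20 and its C8 cells from 107 to 124. Its CD4+ C6 cells went from 443 to 34 and its C11 cells, the Treg cluster, from 20 to 59. Nfkb1 was nearly the same either way, at log2 -0.75 as measured and -0.73 with the saline mix in CD4+ cells and -0.91 and -0.90 in CD8+ cells. Rel was -1.63 and -1.19 in CD4+ and -1.59 and -1.12 in CD8+ cells, and Tnfaip3 -1.84 and -1.37, and -1.83 and -1.18. The treated and saline pools did not overlap in any of these. Relb moved most in CD4+ cells, from -0.82 to -0.22. In CD8+ cells Nfkb2 went from -0.91 to -0.068, with pools that overlapped, and Relb from -0.48 to 0.24. With clusters weighted by their share of saline cells instead, Relb was -0.12 in CD4+ and 0.054 in CD8+ cells and its pools overlapped in both, and Nfkb2 in CD8+ cells was -0.24, with overlap. Nfkbid in CD8+ cells went from 0.035 to 1.08, with a spread of 20 CPM (SD) between treated pools around a mean of 44.9. In saline, CD8+ C8 stood above C4 for Nfkb2 (121 against 42.2 CPM), Relb (81.6 against 26.3) and Nfkbid (189 against 19.9). The part of the remainder in these CD8+ values, and in the CD4+ values above, was not tested. Within single CD8+ clusters after TMM scaling, Nfkb2 was below saline at 50 mg/kg in 7 of 7 tested, Relb in 4 of 7 and Nfkbid in 2 of 6. Within single CD4+ clusters Relb was below saline in 6 of 7, with 1 called fall and 1 called rise. At 5 mg/kg, Tnfaip3 in CD4+ cells went from -0.87 to -0.22 and Nfkb1 from -0.62 to -0.21. Exact permutation tests of 3 pools against 3 cannot give a p below 0.1, and that was the value for Rel, Tnfaip3, Nfkb1, Nfkbia, Nfkbie and Bcl3 at 50 mg/kg in both lineages.

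**Figure D5:**
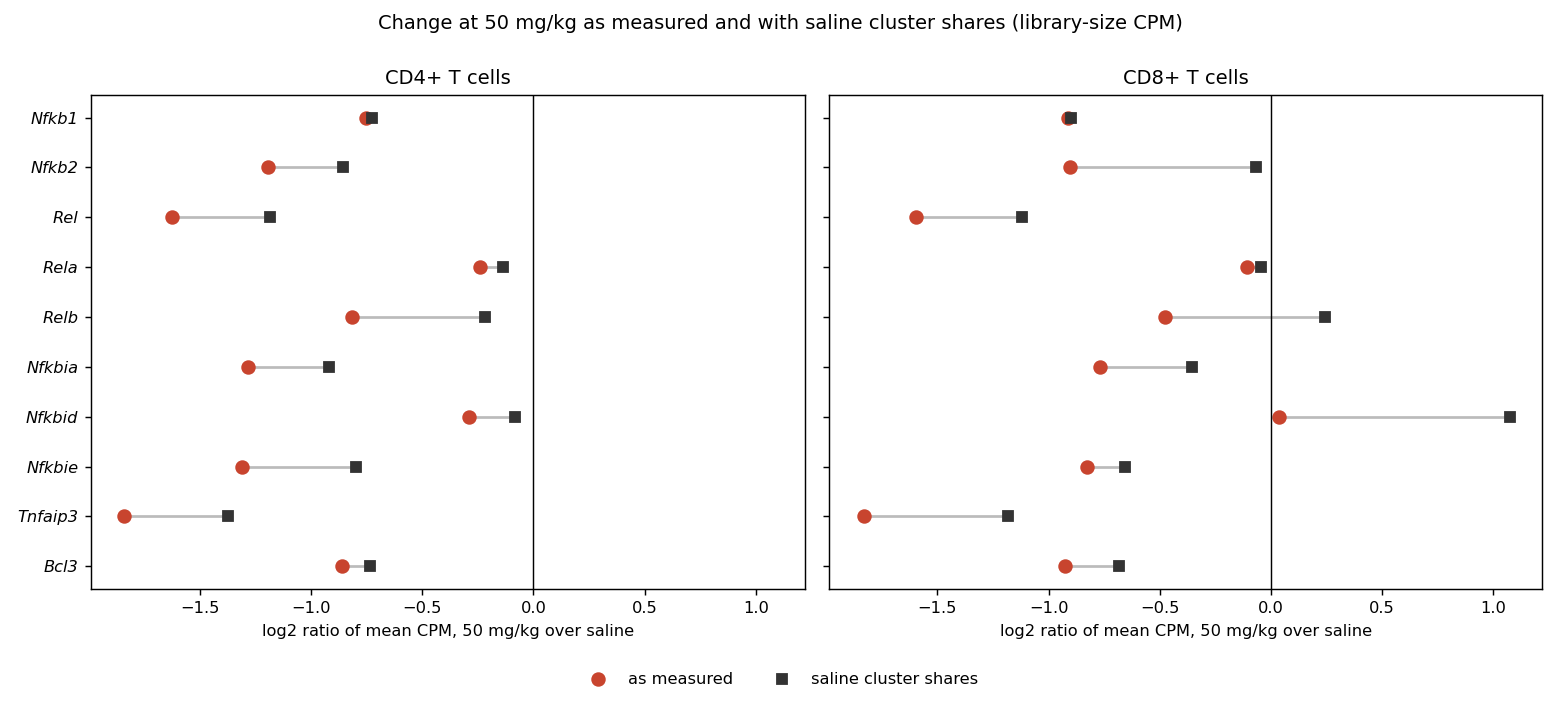
Log2 ratio of the mean library size CPM at 50 mg/kg over saline (x axis), as measured (red circles) and with every pool weighted to the saline mix of clusters (black squares). Small clusters, C4 and C8 in CD8+ cells among them, were summed as 1 remainder whose own mix was not held. Squares stay left of -1 for Rel and Tnfaip3 in both lineages, and cross 0 for Relb in CD8+ cells, where weights by cell share gave 0.054 with overlapping pools.

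The genes whose levels ran most like each member were sought over 58 sums, 1 for each cluster and group with at least 50 cells, among 3204 genes, with Pearson's r of log2(CPM + 5) as a description. The points share captures and depth. Nfkb2 and Nfkbia were most like Orai1, the pore of the calcium release-activated channel (r = 0.901 and 0.873), which was also among the 3 most alike for Relb and Nfkbid. Rel was most like Nfatc1, an NFAT gene (r = 0.859), Nfkb1 like Itpr1, the gene of a calcium release channel (r = 0.873), and Nfkbie like Cd84 (r = 0.812). Nfkbid was most like Zap70 (r = 0.747) and Bcl3 like Inpp4b (r = 0.746). For 3 of the 10, Nfkb2, Rela and Relb, another of the 10 was among the 3 most alike, as with Relb and Nfkbia (r = 0.85). Only genes with a mean of at least 50 CPM could be named, so this count depends on the filter. Relb was not among those candidates, although its r with Nfkbia was above that of Tnfsf8, the third gene for Nfkbia (r = 0.838). Rela had the lowest values, the highest being Gmip (r = 0.592).

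A list of 16 genes held those from the T cell receptor to IκB kinase, upstream of NF-κB, and the IκB gene Nfkbib. Of these, 11 fell and 2 rose at 50 mg/kg in CD4+ cells, and 11 fell and 3 rose in CD8+ cells, with medians of -0.41 and -0.39. Over all genes 35.8% were called lower and 34.7% higher in CD4+ cells, and 36.9% and 37.1% in CD8+ cells. Malt1, the gene of a protease in T cell receptor signalling, fell in CD4+ cells from 138 ± 7.73 to 38.2 ± 3.72 CPM (log2 -1.85) and in CD8+ cells from 103 ± 3.69 to 41.7 ± 1.85 (log2 -1.30; SD, n = 3). Map3k7, the kinase TAK1, fell in CD8+ cells (log2 -1.07), and Tab2, its partner, in CD4+ cells (log2 -0.90). Bcl10, the gene of the binding partner of MALT1, rose in both (log2 0.59 and 0.73). Nfkbib, the gene of IκBβ, rose as well (0.35 and 0.50), but was at -0.092 and -0.025 with library size scaling.

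Of 8 genes of the alternative pathway and of TRAF adaptors tested, 5 fell and 1 rose in each lineage at 50 mg/kg (35.8% and 34.7% of all genes in CD4+ cells, 36.9% and 37.1% in CD8+ cells). Traf3, the adaptor that keeps NIK low, fell from 44.6 ± 1.81 to 23.3 ± 1.61 CPM in CD4+ and from 32.1 ± 3.24 to 13.9 ± 2.2 CPM in CD8+ cells (log2 -0.94 and -1.22), and Tank fell by 0.69 and 0.68. Traf1 rose (0.43 and 0.77), and the CD4+ value was -0.0078 with library size scaling. Of 15 ubiquitin editors and other regulators, 7 fell and 5 rose in CD4+ cells and 7 fell and 6 rose in CD8+ cells, not far from the shares over all genes (35.8% and 34.7%, 36.9% and 37.1%). Nfkbiz, the gene of the nuclear IκB protein IκBζ, fell from 129 ± 9.54 to 35.1 ± 2.14 CPM in CD4+ and from 61.3 ± 3.6 to 22.7 ± 3.65 in CD8+ cells (log2 -1.88 and -1.42), and the ubiquitin ligase gene Itch fell (-1.04 and -0.91). Commd1, which promotes the degradation of RELA, rose (0.94 and 0.74), as did Nfkbil1 in CD4+ (0.57) and Sharpin, a subunit of the linear ubiquitin ligase, in CD8+ cells (0.72).

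A further list held ligands and receptors of the TNF families, which feed both routes, and the CD28 family receptor genes Cd28 and Icos. Of its 18 genes, 12 fell and 4 rose in CD4+ cells at 50 mg/kg (median -0.92, with 35.8% of all genes lower and 34.7% higher). In CD8+ cells 11 fell and 4 rose (median -0.84, with 36.9% and 37.1%). Tnfsf8, CD30 ligand, fell from 143 ± 25.9 to 20.1 ± 6.37 CPM (log2 -2.81) and Tnfsf14, LIGHT, from 42.2 ± 2.47 to 11.1 ± 3.85 CPM in CD4+ cells. In CD8+ cells Tnfrsf4, OX40, fell from 30.6 ± 0.29 to 2.02 ± 0.19 CPM (log2 -3.92), and Tnfrsf9, 4-1BB, from 164 ± 6.77 to 43.4 ± 2.98 CPM (log2 -1.92). Tnfrsf4 and Tnfsf8 were not called at 5 mg/kg in these lineages (0.22 and -0.14), and with library size scaling Tnfrsf4 was at -0.18. Tnfrsf18, GITR, and Tnfrsf1a rose in CD4+ cells (0.43 and 0.32), and Ltb and Cd27 in CD8+ cells (0.49 and 0.43), and all 4 were below 0 with library size scaling.

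Known target genes outside the list of 10 were divided. Tnf, Lta, Ltb, Traf1, Birc3 and Zc3h12a were on this list and also on 1 of the lists above. Of 30 tested in CD4+ cells, 12 fell and 9 rose at 50 mg/kg (median -0.14), and of 28 in CD8+ cells, 11 fell and 13 rose (median 0.089). These counts lie near the shares over all genes, 35.8% lower and 34.7% higher in CD4+ and 36.9% and 37.1% in CD8+ cells. Ccnd2, cyclin D2, rose from 139 ± 8.96 to 251 ± 14.5 CPM in CD4+ and from 72.1 ± 3.85 to 174 ± 27.4 in CD8+ cells, and the chemokine gene Ccl4 rose in CD8+ cells (log2 1.22). Csf2, the cytokine GM-CSF, rose at 5 mg/kg and fell at 50 mg/kg in CD4+ cells, with 31.4 ± 14, 66.4 ± 23.4 and 11.1 ± 3.18 CPM in saline and at both doses. Zc3h12a, the RNase Regnase-1, fell in CD4+ cells (-1.02), and Il2ra and Xiap in CD8+ cells (-0.99 and -0.91). Bcl2a1d rose in CD4+ cells (0.82), but shares sequence with its paralogs, so its reads are uncertain. With library size scaling, the median changes at 50 mg/kg are given in the order receptor to kinase genes, alternative pathway, ubiquitin editors and other regulators, TNF and CD28 families, and targets. They were -0.85, -0.87, -0.73, -1.35 and -0.60 in CD4+ and -0.92, -0.91, -0.51, -1.34 and -0.44 in CD8+ cells, beside -1.03 and -0.87 for the 10 NF-κB genes. At 5 mg/kg, 10 target genes rose and 5 fell in CD4+ cells, and 14 rose and 4 fell in CD8+ cells (26.1% higher and 25.6% lower over all CD4+ genes, 29.9% and 30.3% over all CD8+ genes). With library size scaling the balance was the opposite, with 7 above and 23 below saline in CD4+ cells (median -0.23) and 10 above and 18 below in CD8+ cells (median -0.16).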

How the data were processed

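Single-cell 5′ RNA libraries and hashtag libraries of splenic donor T cells were processed by the authors with Cell Ranger on mm10 and with Seurat 3.0.0, per the submitters' processing notes. The authors deposited raw UMI counts per gene and cell, not normalized, with tables of each cell's lineage, cluster, hashtag and pool. The mitochondrial fraction of each cell's UMIs was also deposited by the authors, and its median per pool was 1.56% to 1.83%. Cells came filtered, and how doublets were removed is not given in the sources used here, so cells with a second hashtag at 0.5 or more of the strongest were left out in an alternative.

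The counts were summed per pool and lineage, TEa cells left out, and fitted over 3 pools per group with edgeR 4.0.16 (filterByExpr, TMM, quasi-likelihood F test) in R 4.3.3. Every p was adjusted by Benjamini-Hochberg over all genes of a fit, and 0.05 was the threshold. Lineages were compared with the pool as a block, and clusters were fitted where a pool held at least 10 of their cells. DESeq2 1.42.0, library size scaling, no filter, a block on pool number, cells of at least 2000 UMIs, cells outside cycling clusters and leaving out each pool were alternatives. CPM intervals cover counting error only, since pools are few and UMIs are not independent samples of mice. The fits were tested on simulated counts with a fixed dispersion and as many rises as falls. These counts held no shift in composition and no capture effect, so they did not test the choice of scaling.

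The 10 genes and the pathway, target and marker lists were chosen with earlier results of these data known. Beyond the 10, the text names per list and lineage up to 2 of the largest rises and 2 of the largest falls at 50 mg/kg among called genes whose mean reached 20 CPM and whose pools did not overlap, and the 3 genes most like each of the 10, of which those with the highest r are printed. Replicate pools came from separate mice. The numbers of UMIs per pool set the precision. The values of a few genes are not reported here.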

Additional observations from a re-analysis of the deposited data

Results flagged for a closer look

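The change at 50 mg/kg against saline differed between CD8+ and CD4+ cells, by edgeR's quasi-likelihood interaction test, for Nfkbia (0.5778 on the log2 scale), Nfkbie (0.5596), Relb (0.4000), Nfkbid (0.3923) and Nfkb2 (0.3305), with the CD8+ value the higher in each. Pools of Cd8b1 in CD4+ cells, at 141 to 153 CPM in saline and 20.8 to 25.8 at 50 mg/kg, moved with the same contrast, and the part of this in the result was not tested.

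In CD8+ cells the change of Tnfaip3 at 50 mg/kg differed between effector and naive cells (-1.7159, effector against naive). Naive cells numbered 35 to 59 per pool, and their Tnfaip3 value rested on 9 UMIs in saline.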

How the results depend on the processing

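For the 30 CD4+ and 30 CD8+ dose results of the 10 genes, cells of at least 2000 UMIs, inclusion of TEa cells, and fits of only the groups compared kept every direction and call. Library size scaling changed most. It reversed in CD4+ cells Nfkbia at 5 mg/kg (-0.0718), Rela at 5 and 50 mg/kg (-0.3009 and -0.2439) and Nfkbid at 50 mg/kg (-0.2881), and in CD8+ cells Relb (-0.1250 and -0.4862), Nfkbia (-0.0824) and Rela (-0.2434 and -0.1113). Within clusters it reversed CD4+ C0 Rela (-0.0594), Relb (-0.0213) and Bcl3 (-0.4488, called only with library size) at 50 mg/kg, CD8+ C0 Nfkbia at 5 mg/kg (-0.3383) and Rela at 50 mg/kg (-0.0973), and CD8+ C3 Nfkbia at 5 mg/kg (-0.0304). Calls within clusters at 5 mg/kg rose with it from 7 to 16 in CD4+ and from 9 to 21 in CD8+ cells. The cause of these shifts was not tested.

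Of the 10 genes, 5 differed between lineages at 50 mg/kg, 3 with library size scaling and 1 with DESeq2. For effector against naive cells, library size scaling called 1 gene in CD4+ cells (0 otherwise) and 3 in CD8+ cells (1 otherwise), and DESeq2 and no filter 0 in CD8+ cells. DESeq2 called 2153 of all genes between lineages in saline (edgeR 4445), 729 in the interaction at 50 mg/kg (2173), 91 for naive against effector in CD4+ cells (148) and 567 in CD8+ cells (932). With cells outside the cycling clusters, 2836 genes differed between the doses in CD8+ cells (4443 with all cells).

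Leaving out 1 pool at a time gave 167 to 477 genes for the interaction at 5 mg/kg (402 with all pools), 2 to 5 of the 10 genes at 50 mg/kg (5), 80 to 174 genes for naive against effector in CD4+ cells (148) with 0 to 1 of the 10, 0 to 1 in CD8+ cells, and 4 to 8 calls within CD4+ clusters at 5 mg/kg (7). In the dose results 260 of 270 CD4+ and 261 of 270 CD8+ values kept their side of the threshold. Pool numbers are not given as pairing: deviations of pools with the same number correlated at -0.078 to 0.048 in CD4+ and -0.033 to 0.063 in CD8+ cells, and 1 of 9 and 4 of 9 pools were closest to their own number. With pool number as a replicate block, 29 of 30 CD4+ and 30 of 30 CD8+ results stayed the same, the exception being Nfkbie at 5 mg/kg (-0.2151). Low UMI numbers limit the small clusters, where CD4+ C11 and C12 and CD8+ C4 at 50 mg/kg were not fitted.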

Other observations

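TEa cells carry a single receptor for an alloantigen, so they form a uniform alloreactive CD4+ population within each mouse. There were 280 of them, with 530257, 765371 and 229770 UMIs for saline, 5 mg/kg and 50 mg/kg, summed over pools, and values are given with an exact Poisson 95% interval for counting error and without a test. In this order Nfkbia stood at 458 (402 to 520), 324 (285 to 367) and 187 CPM (135 to 252), and Nfkb1 at 221 (182 to 264), 163 (136 to 195) and 113 CPM (73.9 to 166). Tnfaip3 had 49.0 (32.0 to 71.8), 32.7 (21.1 to 48.2) and 8.70 CPM (1.05 to 31.4), the last from 2 UMIs. Rel was at 75.4, 53.6 and 21.8 CPM, the last from 5 UMIs. Nfkbia was thus lower at 5 mg/kg than in saline in TEa cells on the library size scale, with counting intervals that did not overlap. On that scale the median of all genes in the other CD4+ cells was at log2 -0.37 at 5 mg/kg. The intervals hold no spread between pools or mice, so a difference between groups was not tested. Nfkbid was highest with the low dose, at 61.4 CPM (45.1 to 81.7) against 24.5 (13.1 to 41.9) with saline and 21.8 (7.07 to 50.8) with the high dose. Rela was at 56.6, 58.8 and 74.0 CPM, with intervals that overlapped.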
